A study of Drosophila melanogaster with 8 samples.

Results

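Genes of cyclic AMP (cAMP), protein kinase A (PKA) and calcium kinase signalling were examined in heads of Canton-S flies, a wild-type laboratory strain of Drosophila melanogaster, with and without light in the early night. The members were the 10 genes rut, dnc, Pka-C1, Pka-R1, Pka-R2, CRTC, nej, CaMKII, Cam and S6kII, taken through every probe set that carries a single gene symbol. Of these, 6 genes with 8 probe sets were measured, among 11982 genes named on the array: rut, dnc, S6kII and CRTC (current symbol Crtc) by 1 probe set each, and Pka-R1 and nej by a pair each. Pka-C1, Pka-R2, CaMKII and Cam were not analysed here, since no probe set was matched to them.

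Flies aged 3 to 5 days were held for 4 days in alternating 12 h light and dark phases (25 °C). The pulsed group received saturating light for 30 min from ZT 15 (zeitgeber time, hours after lights on), 3 h into the dark phase, and was frozen 1 h after the pulse. The unpulsed group was collected without a pulse, and the titles place both groups at ZT 16.5. Each group held 4 Affymetrix arrays of total RNA from whole heads, and the labels name neither sex nor batch. They do not say whether replicates came from separate flies either, so each p reflects only how these arrays vary. Part of that variation may be technical. The yolk protein and male tract genes below show that the arrays did not all hold the same material.

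In this pathway an adenylyl cyclase makes cAMP and a phosphodiesterase breaks it down. PKA is a complex of regulatory and catalytic subunits, and cAMP binding to the regulatory subunits frees the catalytic ones, which phosphorylate ion channels, enzymes and transcription factors such as CREB. Calcium enters the same pathway through calmodulin, which stimulates the rut cyclase and activates CaMKII. In flies the pathway is best known from olfactory learning in the mushroom bodies, and in clock neurons cAMP carries the signal of the neuropeptide PDF to the clock proteins.

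The arrays were not alike in what tissue they held. Pulsed replicate 2 stood apart, with correlations of at most 0.988 with the other arrays, across probe sets. The mean of 5 male reproductive tract genes was 7.78 there against 2.37 to 2.44 elsewhere, and that of 5 gut genes 5.79 against 2.49 to 2.60. The mean of the yolk protein genes was 5.13 to 5.35 on pulsed replicates 3 and 4 and unpulsed replicate 1, and 10.4 to 11.9 on the remaining arrays. Head tissue was plain from its markers on every array: 3 photoreceptor genes (trpl, trp and inaD) averaged 11.5 to 11.8 and 5 glial genes 10.5 to 10.7. Neuron markers were more variable, and they are given below beside the members. Differences that moved by over 1.5 times without pulsed replicate 2 are given with and without it.

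No member passed the test between pulsed and unpulsed heads. With limma at an adjusted p of 0.05, members gave 0 calls among 8 probe sets, and the whole array gave 0 among 18769, or 0.0%. At an unadjusted p of 0.05 there were again 0 of 8, where 4.81% of all probe sets passed, and the pulsed and unpulsed arrays did not overlap for 0 of 8, against 2.56% of all probe sets. Each of the 8 had a limma adjusted p of 0.9999. A missed threshold does not show equal levels, so the interval of each difference is given with the gene.

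**Figure D1:**
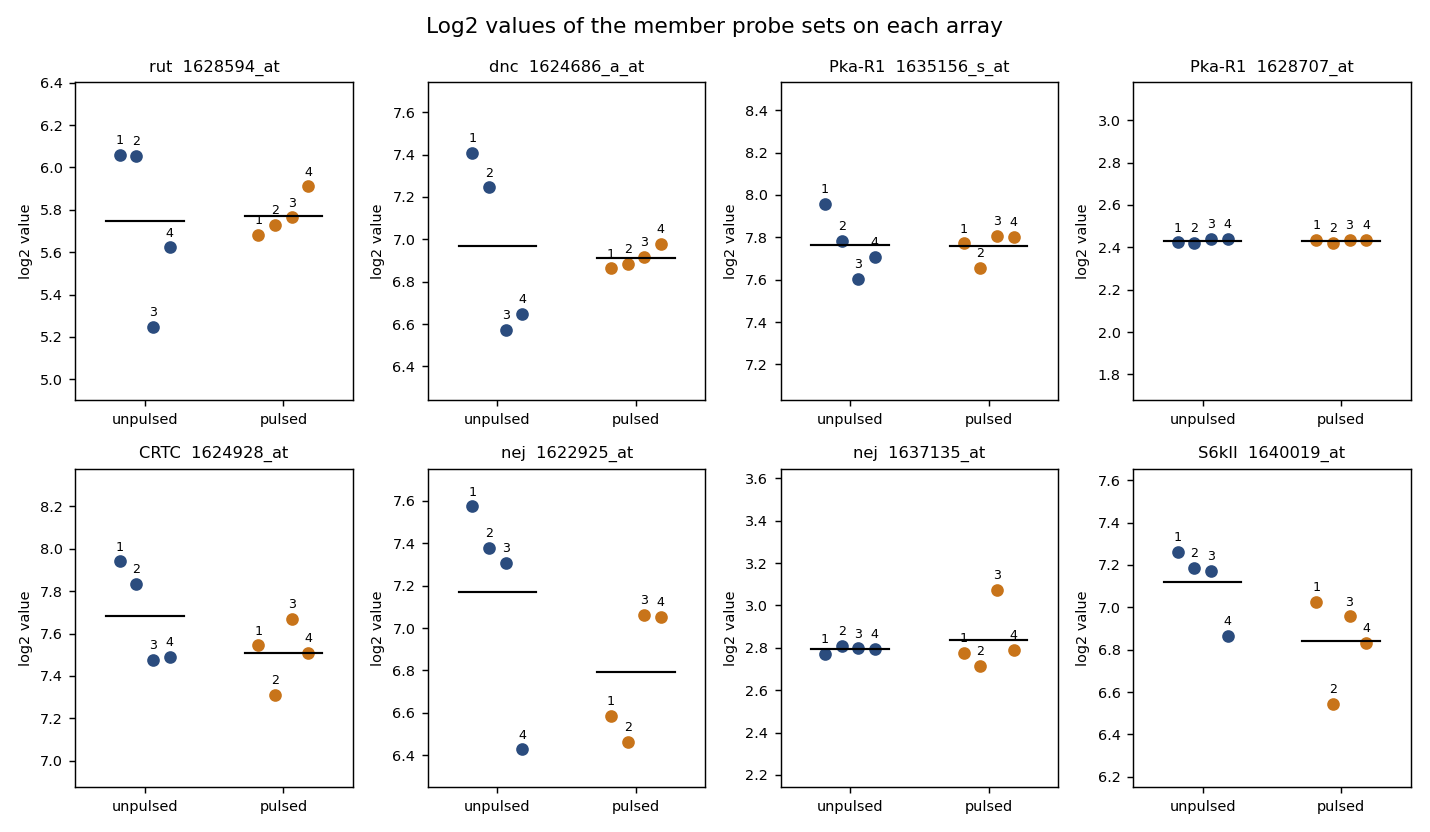
Log2 value (vertical axis, each panel spanning the same number of log2 units) of the 8 member probe sets on unpulsed (blue) and pulsed (orange) arrays. Digits are replicate numbers and bars are group means (n = 4 per group); the groups overlap in every panel, and unpulsed replicate 1 is the highest point for rut, dnc, CRTC, S6kII, the brighter Pka-R1 and the brighter nej probe set.

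The pair of genes that set the cAMP level came first. rut encodes the calcium- and calmodulin-stimulated adenylyl cyclase whose mutants learn poorly. Its probe set (1628594_at) read 5.68, 5.73, 5.76 and 5.91 log2 units on pulsed replicates 1 to 4, and 6.06, 6.05, 5.25 and 5.62 on unpulsed replicates 1 to 4. The pulsed arrays lay close together, inside a wide unpulsed range whose top was set by replicates 1 and 2 and whose bottom was set by replicate 3. The group means were 5.77 ± 0.099 and 5.74 ± 0.39 (SD, n = 4 each), a log2 difference of 0.026 (SE 0.19, 95% interval -0.42 to 0.47). Its sign was not fixed: without unpulsed replicate 3 the difference was -0.14, and without unpulsed replicate 1 it was 0.13, while without pulsed replicate 2 it was 0.041.

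dnc encodes the cAMP phosphodiesterase that opposes rut, and it too was found as a learning mutant. The probe set (1624686_a_at) read 6.86, 6.88, 6.92 and 6.98 on the pulsed arrays, and 7.41, 7.25, 6.57 and 6.65 on the unpulsed ones. Again the 4 pulsed values sat in the gap between high unpulsed replicates 1 and 2 and low unpulsed replicates 3 and 4. The SD was 0.050 in the pulsed and 0.42 in the unpulsed group, and the log2 difference was -0.058 (SE 0.20, 95% interval -0.52 to 0.41). Leaving out unpulsed replicate 1 gave 0.088, and leaving out unpulsed replicate 3 gave -0.19. The cyclase and the phosphodiesterase, which act in opposite directions on cAMP, thus ordered the unpulsed arrays alike, with replicate 1 highest and replicate 3 lowest for both.

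Pka-R1 encodes the type I regulatory subunit that holds the PKA catalytic subunits inactive. Its brighter probe set (1635156_s_at) read 7.77, 7.66, 7.81 and 7.80 on pulsed arrays and 7.96, 7.78, 7.60 and 7.71 on unpulsed ones. Among the members' brighter probe sets it spread least, over 0.35 log2 units on the 8 arrays, and the groups overlapped. The log2 difference was -0.0045 (SE 0.077), and its 95% interval of -0.19 to 0.18 corresponds to folds between 0.878 and 1.13. The sign turned without unpulsed replicate 1 (0.060) and without pulsed replicate 2 (0.030), and Pka-R1 was the member for which the arrays set the tightest bound on a change. The other probe set (1628707_at) stayed between 2.42 and 2.44 on all arrays, below the array medians of 2.95 to 3.07, and showed none of this spread.

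CREB-dependent transcription is where PKA reaches the nucleus. CRTC encodes the CREB-regulated transcription coactivator, which calcineurin dephosphorylates and salt-inducible kinases phosphorylate, and which has a known role in fly circadian behaviour. Its probe set (1624928_at) read 7.54, 7.31, 7.67 and 7.51 on pulsed arrays and 7.94, 7.83, 7.48 and 7.49 on unpulsed ones. All 4 pulsed values lay below the unpulsed mean of 7.69. Pulsed replicates 1, 3 and 4 were nevertheless above unpulsed replicates 3 and 4, so the groups overlapped. The log2 difference was -0.18 (SE 0.13, 95% interval -0.48 to 0.13). It was -0.091 without unpulsed replicate 1 and -0.11 without pulsed replicate 2.

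nej encodes the fly CREB-binding protein, an acetyltransferase that serves CREB and also the clock activators Clk and cyc. Its brighter probe set (1622925_at) had the widest spread of the members, with 6.58, 6.46, 7.06 and 7.05 on pulsed arrays and 7.57, 7.38, 7.31 and 6.43 on unpulsed ones. The first 3 unpulsed replicates were above every pulsed array, and unpulsed replicate 4 was below every one. The log2 difference of -0.38 (SE 0.28), a fold of 0.768, therefore had a 95% interval from -1.03 to 0.27. It was -0.63 without unpulsed replicate 4, -0.25 without unpulsed replicate 1 and -0.27 without pulsed replicate 2. The other probe set (1637135_at) disagreed. It read 2.71 to 2.81 on 7 arrays, below the array medians, and 3.07 on pulsed replicate 3, for a log2 difference of 0.045 (SE 0.075) that was -0.034 without that array and 0.086 without pulsed replicate 2.

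S6kII encodes the fly ribosomal S6 kinase of the RSK family, which acts below the MAP kinase pathway and in flies also bears on circadian period. Its probe set (1640019_at) read 7.02, 6.54, 6.96 and 6.83 on pulsed arrays and 7.26, 7.19, 7.17 and 6.87 on unpulsed ones. All pulsed values were below the first 3 unpulsed replicates, while unpulsed replicate 4 lay among them. The log2 difference was -0.28 (SE 0.13), a fold of 0.822, with a 95% interval of -0.58 to 0.020. This was the member whose interval came nearest to leaving 0 out, and limma gave it an unadjusted p of 0.0629 and an adjusted p of 0.9999. The value was -0.18 without pulsed replicate 2, the lowest array.

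**Figure D2:**
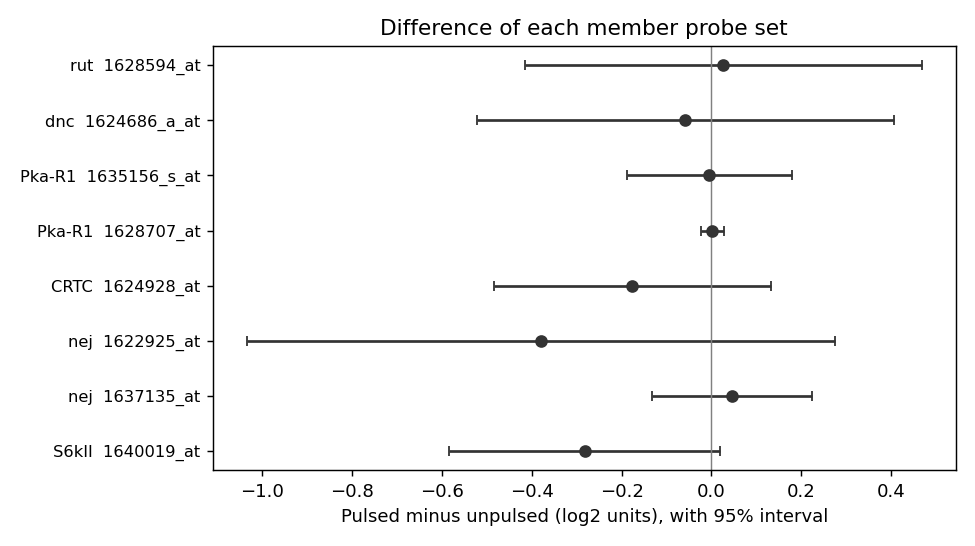
Pulsed minus unpulsed difference in log2 units (horizontal axis) for the 8 member probe sets, with points for limma's estimate and bars for its 95% interval (n = 4 per group). Every interval spans 0; among the brighter probe sets the narrowest is that of Pka-R1 (-0.19 to 0.18) and the widest that of nej (-1.03 to 0.27), and the dim probe sets of both genes have narrower ones.

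By the brighter probe set of each gene, 5 of the 6 members had a lower mean in pulsed heads, where 53.2% of all 11982 genes did. Their median log2 difference was -0.12, beside -0.0014 over all genes. Without unpulsed replicate 1 the count was 3 of 6 and the median -0.015, beside 57.7% of all genes lower. Without pulsed replicate 2 it was 4 of 6 with a median of -0.080, beside 42.5%. In the other direction, 6 of 6 were lower without unpulsed replicate 3 (median -0.22, beside 44.3% of all genes). The count was also 6 of 6 without unpulsed replicate 4 (-0.20, beside 44.65%). It was 6 of 6 again with the 3′ minus 5′ covariate (-0.15, beside 41.8%) and the yolk covariate (-0.17, beside 52.2%). The members' signal was well above the dimmest part of the array: for these 6 probe sets, between 18.9% (Pka-R1) and 34.8% (rut) of all probe sets were brighter. Such a position describes how bright a probe set is and not how much transcript one gene has next to another, because probe sequences differ in how they bind.

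What the members had in common was their behaviour within the unpulsed group, a pattern noticed after the values were seen. Unpulsed replicate 1 was the highest of all 8 arrays for 6 of 6 members, and for 13.8% of all genes. That share also counts dim genes, and this array had the lowest median (2.95). It was highest as well for 3 of 5 neuron, 3 of 5 mushroom body and 2 of 4 muscle markers, and for 0 of 5 glial and 0 of 3 photoreceptor markers. The spread was larger among unpulsed than among pulsed arrays for 5 of 6 members, and for 61.5% of all genes. On unpulsed replicates 1 and 2, which were the highest arrays for rut, dnc, CRTC, nej and S6kII, 6 of 6 members were above their own 8-array mean, and on unpulsed replicate 4 and pulsed replicate 2 there were 0 of 6. Pulsed replicates 3 and 4 had 4 of 6 each, and pulsed replicate 1 and unpulsed replicate 3 had 2 of 6 each.

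The mean level of neuron markers was also highest on unpulsed replicates 1 and 2, though not for every marker. The mean of the 5 measured of 7 listed (elav, nSyb, brp, Snap25 and para) was 7.96 on unpulsed replicate 1 and 7.84 on replicate 2. It was 7.45 and 7.52 on unpulsed replicates 3 and 4, and 7.60, 7.44, 7.65 and 7.67 on pulsed replicates 1 to 4. The marker mean was lowest on pulsed replicate 2 and unpulsed replicate 3. Of the 5 markers, elav and para were highest on unpulsed replicates 1 and 2, and para, a sodium channel gene, ranged most, from 2.89 to 4.29. The other 3 did not share this order. nSyb was at 9.43 on unpulsed replicate 2, below the 9.50 to 9.84 of the pulsed arrays, and highest on pulsed replicate 3. Snap25 reached 12.3 on unpulsed replicate 3, where rut and dnc were lowest, and brp was at 3.99 to 4.11 on all arrays but unpulsed replicate 3, at 3.65. Mushroom body markers (ey, toy, dac, mub and sNPF, 5 measured of 6 listed) averaged 8.28 and 8.10 on unpulsed replicates 1 and 2, and between 7.56 and 7.99 on the remaining arrays. Of these, only dac and mub were highest on that pair of arrays. On unpulsed replicate 2, sNPF was at 8.75, below pulsed replicate 4 and unpulsed replicates 3 and 4 (8.78 to 8.86). There ey was at 5.76, below pulsed replicates 1 and 4 (5.92 and 5.84). toy was at 9.163 on unpulsed replicate 1, below pulsed replicate 3 (9.182). The mean of muscle markers (Act88F, Mlc2, up and Tm2, 4 measured of 6 listed) was also highest on unpulsed replicates 1 and 2. It was 7.78 and 7.71 there, and 7.17 to 7.63 elsewhere. Of these markers, up, a troponin T gene, ranged most, from 6.12 to 8.07, and was highest on the same pair of arrays, as was Mlc2. Act88F was instead lowest on unpulsed replicate 2 (4.39) and highest on pulsed replicate 2 (4.705). Tm2 was highest on unpulsed replicate 1 (9.17), but pulsed replicate 2 (9.11) was above unpulsed replicate 2 (9.08). In whole heads, fewer cells of a type and less RNA per cell cannot be told apart.

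**Figure D3:**
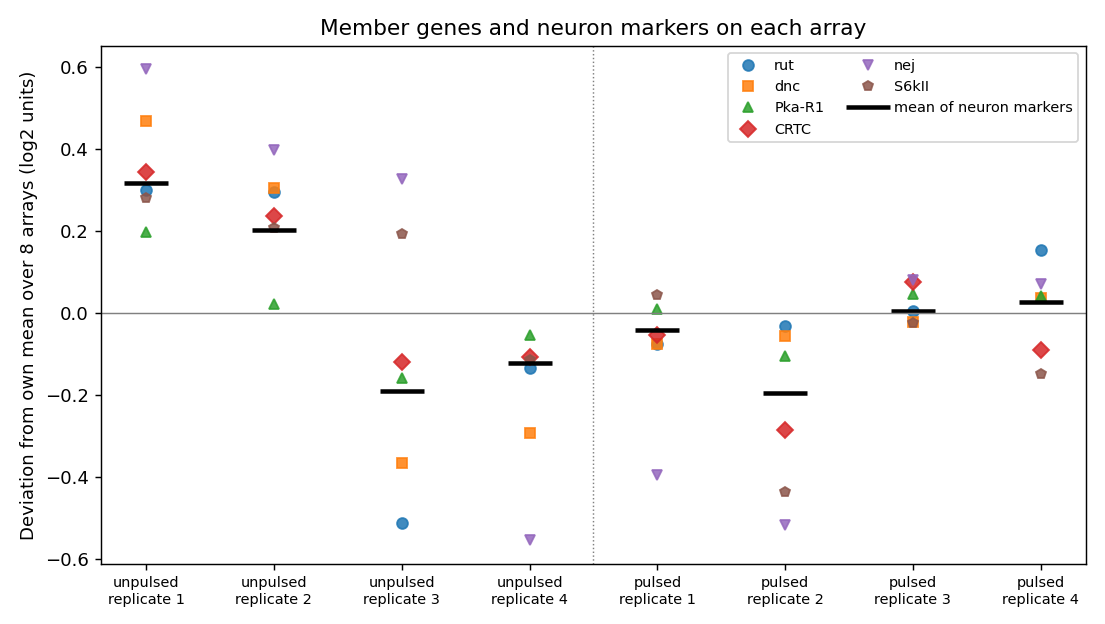
Deviation of each member gene (coloured symbols, brighter probe set) and of the mean of 5 neuron markers (black bars) from its own mean over the 8 arrays, in log2 units, by array; the dotted line parts unpulsed from pulsed arrays. All 6 members lie above 0 on unpulsed replicates 1 and 2, where the neuron marker mean is also highest, and nej departs furthest from it on unpulsed replicates 3 and 4.

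With the neuron marker mean as a covariate, an alternative chosen after the data were seen, the median member difference was -0.0085. In that fit 3 of 6 members were lower in pulsed heads, beside 57.85% of all genes. dnc was then at 0.097 and CRTC at -0.073, while S6kII was at -0.22 and nej at -0.23, and 0 of 8 probe sets passed. The 3′ minus 5′ log2 difference of the array's GAPDH control, a sign of RNA integrity, was 0.857 ± 0.062 in pulsed and 1.03 ± 0.054 in unpulsed heads (SD, n = 4 each), with no overlap (exact two-sided permutation p = 0.0286, the smallest that 70 arrangements allow). The groups overlapped for the other controls. eIF-4a was at 2.96 ± 0.17 against 3.28 ± 0.15 (exact permutation p = 0.0571) and actin at 1.225 ± 0.15 against 1.35 ± 0.17 (exact permutation p = 0.429). The average over GAPDH, eIF-4a and actin was 1.68 ± 0.072 against 1.88 ± 0.12 (exact permutation p = 0.0571). When this 3-control average entered the fit, nej was at -0.040, rut at -0.11, dnc at -0.18 and CRTC at -0.25. The part of neuron content or RNA integrity in the members' values was not tested beyond these fits, and that of muscle content was not tested.

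The wider pathway was described by 11 lists holding 51 further genes, and 0 of the 51 passed limma's adjusted p of 0.05. Their median log2 difference was -0.067, and 41 of 51 were lower in pulsed heads, beside 53.2% of all genes. Without unpulsed replicate 1 that count was 34 of 51, when 57.7% of all genes were lower. It was again 34 of 51 without pulsed replicate 2, against 42.5%. With the neuron marker covariate it was 33 of 51, beside 57.85% of all genes. With dim probe sets filtered out it was 35 of 45, beside 50.9%. Unpulsed replicate 1 was the highest array for 23 of the 51. At an unadjusted p of 0.05, 3 of 51 were lower (Nf1, S6k and RyR), against 2.41% of all probe sets, and 1 was higher (CrebB), against 2.4%.

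Nf1, the fly neurofibromin, is a Ras GTPase-activating protein that is also needed for cAMP signalling through rut. Its brightest probe set (1625048_at) read 6.68, 6.63, 6.77 and 6.62 on pulsed arrays and 7.59, 7.23, 6.98 and 6.99 on unpulsed ones, with every pulsed array below every unpulsed one. The log2 difference was -0.52 (SE 0.14, 95% interval -0.85 to -0.20), at limma's adjusted p = 0.817. A separate probe set of nearly the same brightness (1634083_at) gave -0.52 (SE 0.16) and a dimmer one (1628651_a_at) -0.29 (SE 0.14). The 3 probe sets of Nf1 thus shared a direction, but the groups overlapped for both of these others. On 1634083_at pulsed replicate 4 (6.86) was above unpulsed replicate 4 (6.805). The brightest probe set was at -0.39 without unpulsed replicate 1 and at -0.42 with the neuron marker covariate. The other gene whose groups did not overlap was RyR, the calcium release channel of internal stores, at -0.44 (SE 0.17, adjusted p = 0.990), with 4.97 to 5.45 on pulsed and 5.55 to 6.17 on unpulsed arrays. These 2 of 51 stand beside 1.26% of all probe sets with pulsed arrays wholly below.

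Adenylyl cyclases besides rut showed little that stood clear of the spread: 8 of 9 measured cyclases, all but rut, had a lower pulsed mean and 0 passed. Ac76E was at -0.32 (SE 0.16) and Ac13E at -0.18 (SE 0.12). The 5 ACX cyclases, known from the male germline, read 2.12 to 2.54 on average, below the array medians. They are among the 8 counted as lower, with differences of only -0.00010 to -0.027. Among phosphodiesterases 5 of 6 were lower and 0 passed, with Pde1c, a calmodulin-dependent enzyme, at -0.55 (SE 0.27) and Pde6, which degrades cGMP, at -0.34 (SE 0.18). Both spread widely. Pde6 was at 7.67 to 7.78 on the first 3 unpulsed arrays but 6.98 on replicate 4, which is below all pulsed arrays. Of the 4 probe sets of Pde1c, the second in brightness gave -0.29 (SE 0.43).

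Besides Pka-R1, the PKA list held Pka-C3, a catalytic subunit, at -0.13 (SE 0.11), which was -0.071 without pulsed replicate 2. A-kinase anchoring proteins, which place PKA at membranes and organelles, had 2 of 4 lower and 2 higher, with rg at -0.26 (SE 0.18) and nvy at 0.14 (SE 0.16). rg was at -0.13 without unpulsed replicate 1, and nvy at 0.23 without pulsed replicate 2 and 0.053 without pulsed replicate 1. CrebB, the CREB gene whose product CRTC and nej serve, had the highest value of the pathway at 0.55 (SE 0.21, limma adjusted p = 0.974). Its signal was low, at 3.72, 3.22, 3.76 and 2.85 on pulsed arrays and 2.70 to 2.88 on unpulsed ones, and pulsed replicate 4 lay among the unpulsed arrays. With a pseudocount of 16 on the linear scale the CrebB difference was 0.21, and its other probe set gave 0.0065. Sik3, a kinase of CRTC, was at -0.18 (SE 0.12), and at -0.074 without pulsed replicate 2. Its dimmer probe set (1630517_at, mean 3.84) gave 0.044 (SE 0.060).

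Among calcium signalling genes, of the 6 calcineurin genes measured, 6 had a lower pulsed mean and 0 passed, with a median of -0.054. CanA1, a catalytic subunit, was at -0.19 (SE 0.098), or -0.098 without unpulsed replicate 1, and CanB2, a regulatory subunit, at -0.069 (SE 0.038). CanA1 had a low signal, at 3.29 on average, and with a pseudocount of 16 its difference was -0.074. In the calmodulin kinase list only CASK, a scaffold with a CaMKII-like domain, at 0.076 (SE 0.19), and Camta, a calmodulin-binding transcription activator, at -0.041 (SE 0.15), were measured. CASK was at 0.13 without pulsed replicate 2. It turned sign without unpulsed replicate 3 (-0.083) and Camta without unpulsed replicate 1 (0.10). Calcium store and entry genes had 6 of 6 lower and a median of -0.12, with the voltage-gated calcium channel gene cac at -0.51 (SE 0.31). cac read 8.87 and 8.72 on unpulsed replicates 1 and 2 against 7.57 on replicate 4, and was at -0.27 with the neuron marker covariate and -0.32 without unpulsed replicate 1.

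In the list around S6kII, 4 of 5 genes were lower (median -0.14). S6k, the growth-related S6 kinase that acts below TOR and is a different enzyme from S6kII, was at -0.14 (SE 0.047, adjusted p = 0.949), with 9.37 to 9.54 on pulsed and 9.54 to 9.66 on unpulsed arrays. Its groups overlapped by a narrow margin. Protein kinase C genes had 2 of 4 lower, with aPKC, the atypical kinase of cell polarity, at -0.21 (SE 0.11), or -0.12 without unpulsed replicate 2, and inaC, the eye-specific kinase of phototransduction, at -0.078 (SE 0.081), or -0.049 without pulsed replicate 2. A dimmer aPKC probe set (1640307_at, mean 3.71) went the other way, at 0.19 (SE 0.12). The list of cAMP-coupled receptors, which also holds their G protein and the cAMP-activated exchange factor Epac, had 7 of 8 genes lower, all but Pdfr, and 0 passed. That count includes the low signals of Octbeta3R (mean 2.245, difference -0.0028) and Octbeta2R (mean 3.12, difference -0.033). The dopamine receptor gene Dop1R1 was at -0.45 (SE 0.26), and at -0.25 without pulsed replicate 2. Its signal was low, at 3.985 on average, and with a pseudocount of 16 its difference was -0.22. Galphas was at -0.076 (SE 0.046) and Pdfr, the receptor of PDF, at 0.024 (SE 0.068).

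**Figure D4:**
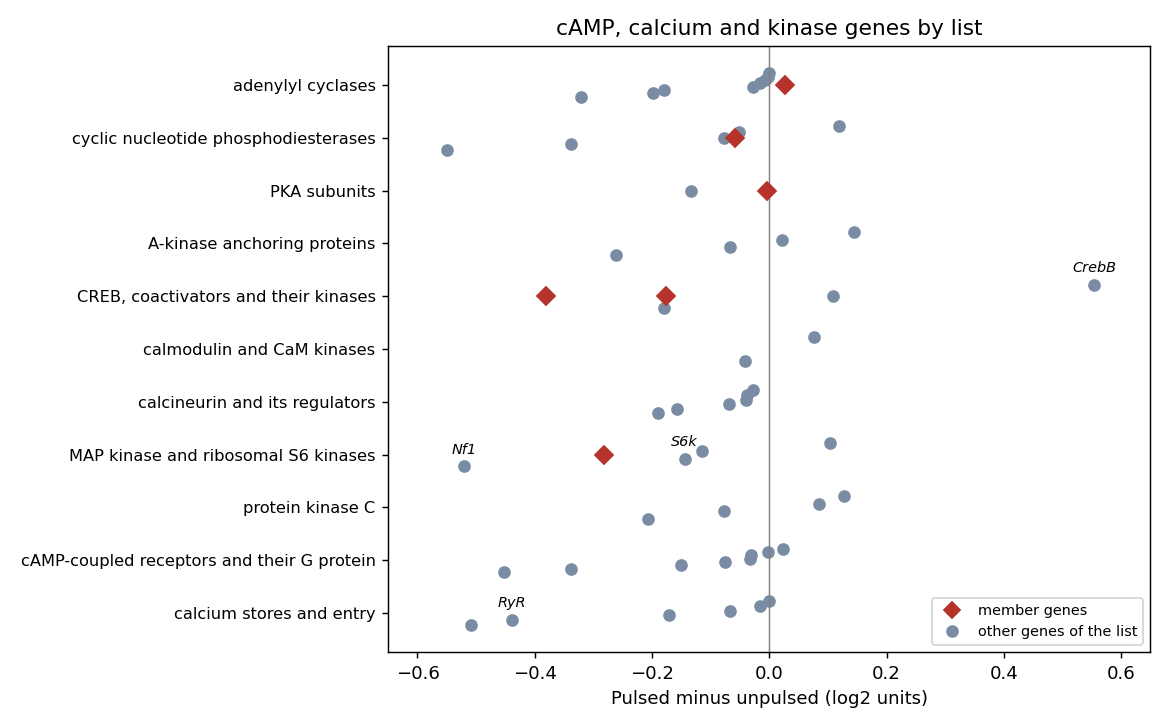
Pulsed minus unpulsed difference in log2 units (horizontal axis) of the 6 member genes (red diamonds) and the 51 other genes (grey points) in 11 lists (the receptor list also holds Epac), each gene by its brightest probe set, with the 4 genes past an unadjusted p of 0.05 named. Most points lie left of 0, from -0.55 (Pde1c) to 0.55 (CrebB), and none passed limma's adjusted p of 0.05.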

How the data were processed

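The authors deposited 1 table of log2 values for 18952 probe sets on 8 arrays. Per the labels' protocols, head RNA was extracted with Trizol and biotin-labelled with an Affymetrix kit. That they are log2 was judged from their range; summarisation and normalization are not given in the sources used here, and the deposited values were used unchanged. After 183 control probe sets were set aside, 18769 were fitted with limma 3.58.1 in R 4.3.3 (two-sided; lmFit and eBayes with group as the one term), adjusted by Benjamini-Hochberg across all 18769 at a threshold of 0.05. Names came from the platform annotation, updated by gene number through the RefSeq table of Release 6 plus ISO1 MT: 13647 probe sets had 1 symbol, 402 several and 4903 none, and none was named from several. List genes were represented by their probe set of highest mean. Named from each list were all members and up to 2 further genes of smallest unadjusted p. S6k, RyR, Nf1 and CrebB fall under that rule. Outside it, Pdfr was chosen after its value was seen, and Octbeta2R and Octbeta3R were named for their low signals. Members and lists were chosen with earlier results of these data known. Steps were tested on simulated data. Alternatives were quantile normalization, median centring, a pseudocount of 16, a filter at the 40th percentile, array weights, a trended and robust spread, a replicate block, each array left out, and yolk, 3′ minus 5′ and neuron marker covariates. Same-numbered arrays did not deviate together (correlations across probe sets from -0.070 to 0.078), so the numbers were not taken as pairs. Precision is limited by 4 arrays per group.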

Additional observations from a re-analysis of the deposited data

Results flagged for a closer look

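In 62 groups of 4 arrays examined among the named probe sets and controls, 5 held an array far from the other 3, and chance flags about 1 in 20 groups. The dim Pka-R1 probe set was at 2.42 on pulsed replicate 2 against 2.43 to 2.44. Pde6 was at 6.98 on unpulsed replicate 4 against 7.67 to 7.78. CrebB was at 2.70 on unpulsed replicate 3 against 2.87 to 2.88. RyR was at 4.97 on pulsed replicate 3 against 5.44 to 5.45. The mean 3′ minus 5′ difference was 1.79 on pulsed replicate 4 against 1.63 to 1.66.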

How the results depend on the processing

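Over all probe sets the count past an adjusted p of 0.05 was 0 in the reported fit, 1 with the filter on dim probe sets, with median-centred arrays and with the trended and robust spread, and 2936 with array weights. It was 2 at an adjusted p of 0.1, 902 at an unadjusted p of 0.05 and 219 at a fold of 1.5. Of the member probe sets, 0 passed in every refit except array weights, where 2 did: dnc at -0.31 (adjusted p = 0.0350) and S6kII at -0.24 (adjusted p = 0.0255), both with adjusted p up to 1.0 in other refits. Those weights rested on pulsed replicate 3 (6.81) and unpulsed replicate 2 (10.15). The replicate block gave 0 calls over all probe sets and 0 among members. It could not move a difference, because each replicate number occurs once in each group. Of 521 values of the 29 named probe sets, 491 kept their direction and 13, all with array weights, passed. The 491 include values that could not have turned. Neither the replicate block, nor the trended and robust spread, nor leaving out dim probe sets changes a fitted difference. The 491 therefore overstate how stable the directions were. Directions turned as follows, and the cause was not tested. With the 3′ minus 5′ covariate rut was at -0.11, Ac13E at 0.039, nvy at -0.10 and CASK at -0.027. With array weights rut was at -0.26, the bright Pka-R1 probe set at 0.0083, CASK at -0.24 and inaC at 0.092. With the neuron marker covariate dnc was at 0.097, the Pka-R1 probe sets at 0.056 and -0.00067, and Camta at 0.066. Pka-R1 was at 0.0061 with quantile normalization and its dim probe set at -0.012 with median centring, and rut was at -0.025 with the yolk covariate. With 1 array left out, rut ran from -0.14 to 0.13, dnc from -0.19 to 0.088, Pka-R1 from -0.058 to 0.060 (dim probe set -0.0017 to 0.0051), the dim nej probe set from -0.034 to 0.086, CASK from -0.083 to 0.20 and Camta from -0.12 to 0.10. The median member difference ran from -0.22 to -0.015.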
